A study of Mus musculus with 8 samples.

Results

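Cytochrome P450 genes were identified by symbol, as names beginning with Cyp and a digit, in a table of estimated read counts per gene from mouse kidney. The table held 98 such genes among 21759. The vitamin D enzymes Cyp27b1, Cyp24a1 and Cyp2r1, the cholesterol synthesis enzyme Cyp51 and 3 genes with names ending in -ps were left out, which gave 91 members. Of these, 43 (47.3%) had 10 or more counts in at least 4 of the 8 libraries and are described here. Of the other 48, 18 had no count in any library and 30 had counts below that limit.

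All 8 mice were male knock-in animals of a MUC1 kidney disease model, aged 8 months, and no wild-type group is analysed here. For 7 days, 4 mice were dosed daily with saline as vehicle and 4 with BRD4780, a small molecule, at 50 mg/kg. Sample titles of the second group read AGN50, so the grouping rests on the treatment field of the labels. Poly(A) RNA from a sagittal section of the kidney was sequenced in bulk, so fewer cells of a type and less RNA per cell cannot be told apart.

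P450 enzymes are heme proteins that insert oxygen into fats, sterols, retinoids, hormones and foreign compounds. In the kidney they are best known from the proximal tubule, where enzymes of family 4 hydroxylate fatty acids and those of the Cyp2c and Cyp2j subfamilies form epoxides of arachidonic acid, lipids that act on blood vessels and salt transport. Many are controlled by nuclear receptors, and several differ strongly between male and female mouse kidney. The enzymes of the endoplasmic reticulum take electrons from the reductase Por, and those in mitochondria from ferredoxin.

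The family was checked against its defining sequence, the stretch around the cysteine that holds the heme iron. Proteins translated from GENCODE M21 coding sequences, 462 to 543 residues long, were searched for phenylalanine, glycine, arginine, cysteine and glycine at the spacing of the P450 signature. The full signature was found in 39 of 43 members. In Cyp7b1 and Cyp39a1 the arginine differed, and in Cyp20a1 and Cyp2s1 the pattern was not found. The 30 coding bases of this stretch are shown 5′ to 3′ for the members with an adjusted p under 0.05 and for the 8 with the highest level, with the cysteine codon in capitals.
Cyp27a1: ttcggctatggggttcggtctTGCctgggt
Cyp2d22: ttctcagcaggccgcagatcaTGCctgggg
Cyp26b1: tttggcggtggcgtgcggaccTGCctgggc
Cyp17a1: ttcggagctggtccccgatcgTGCattgga
Cyp4b1: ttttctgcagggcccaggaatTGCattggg
Cyp2e1: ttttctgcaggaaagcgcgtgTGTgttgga
Cyp2a4: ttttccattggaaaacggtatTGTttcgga
Cyp2a5: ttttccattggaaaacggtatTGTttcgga
Cyp2j5: ttctcaatgggaaaaagagctTGTcttgga
Cyp4a12a: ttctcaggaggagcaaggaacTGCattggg
Cyp2d9: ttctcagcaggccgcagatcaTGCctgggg
Cyp7b1: tttggactcggaacaagcaaaTGTccaggg

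Some stretches were identical between genes, namely Cyp2a4 and Cyp2a5, Cyp4a12a and Cyp4a12b, Cyp4a10, Cyp4a31 and Cyp4a32, and Cyp2d22, Cyp2d9 and Cyp2d26. The cysteine was coded by TGC in 28 members and by TGT in 13. Such likeness bears on the values, because the reads of near-identical genes are divided among them by estimate. In the transcript with the longest coding sequence of each gene, the share of 50-base windows found in another gene was 48.9% for Cyp4a12a, 49.4% for Cyp4a12b, 38.0% for Cyp2a4, 40.8% for Cyp2a5 and 30.5% for Cyp4a10. The share passed 20% in 11 of 43 members, among them also Cyp2d9 at 29.0% and Cyp4a31 at 21.7%. In those transcripts Cyp27a1, Cyp26b1 and Cyp17a1 had no shared window, and in Cyp2d22 6.14% were shared.

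Totals per library were 16.6 to 28.5 M counts with vehicle and 5.74 to 28.2 M with BRD4780. BRD4780 replicate 4 was the shallowest. Replicates are numbered in order of deposition and pair nothing. BRD4780 replicate 3 stood apart from the other treated libraries. Among the treated libraries it was the nearest to the vehicle mean in 23 of the 43 P450 genes, against 7, 3 and 10 for replicates 1, 2 and 4, and over all genes tested it was the nearest in 46.03%. Without it, the number of genes with an adjusted p under 0.05 over all genes went from 394 to 1647 higher and 1537 lower. Results are given with and without it. It was singled out for lying near the vehicle mean, which is the outcome itself, so smaller p-values follow in part from that choice. Every value without it is a description and supports no call.

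Levels are counts per M (CPM) on totals scaled by the trimmed mean of M values (TMM), with SD and n = 4 per group. Folds are BRD4780 over vehicle, and adjusted p-values are from edgeR's quasi-likelihood test over 13474 genes, unless another test is named. Summed over the 43 genes, P450 transcripts came to 16469, 16749, 15063 and 17226 CPM in vehicle replicates 1 to 4. In the BRD4780 libraries the sums were 13467, 14848, 17757 and 12457 CPM. The groups overlapped through BRD4780 replicate 3, the highest of all 8. The means were 16377 ± 930 and 14632 ± 2302 CPM, and an exact two-sided permutation test gave p = 0.229, with 0.0286 as the smallest p that 70 arrangements allow. Without BRD4780 replicate 3 the exact p was 0.0571.

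The 43 genes spanned from 0.207 CPM per kilobase of transcript for Cyp3a13 to 2370 for Cyp4b1 over all libraries. Cyp4b1, which acts on fatty acids and some protoxins, alone took 28.2% to 31.5% of P450 counts in the vehicle libraries. Next by level per kilobase over all libraries were Cyp2e1 at 1292, Cyp2a4 at 865 and Cyp2j5 at 699. Cyp2a5 at 466, Cyp4a12a at 429, Cyp2d9 at 425 and Cyp7b1 at 197 completed the 8 highest. The 5 genes with the most counts held 73.6 ± 0.84% of P450 counts in vehicle and 69.98 ± 3.5% with BRD4780 (exact two-sided permutation p = 0.143). Without BRD4780 replicate 3 the difference was -5.11 percentage points, with an exact permutation p of 0.0286, the smallest this smaller design allows.

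**Figure D1:**
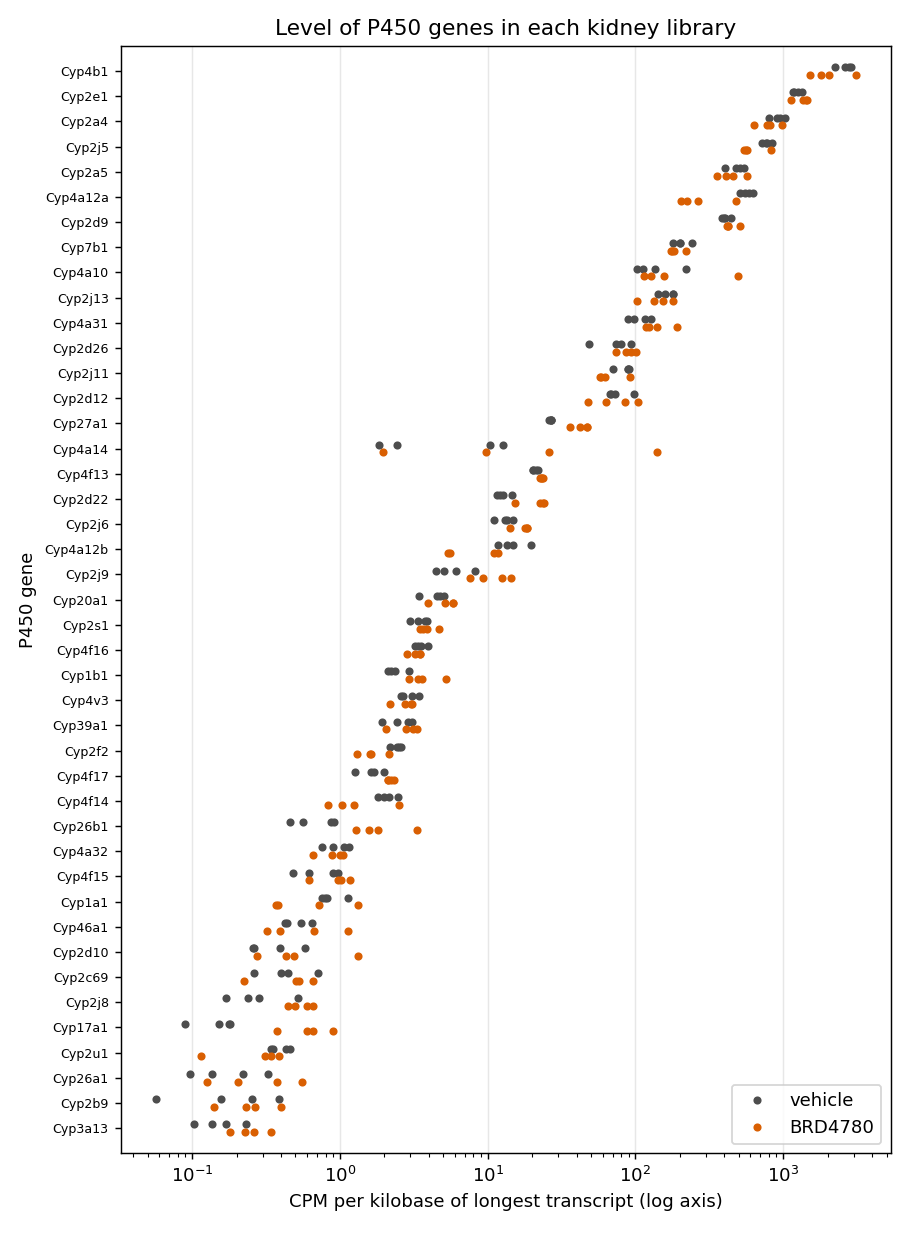
CPM per kilobase of the longest transcript (log axis) of 43 P450 genes, ordered by mean level, with 1 point per library, grey for vehicle and orange for BRD4780 (n = 4 each). Levels run from 0.207 for Cyp3a13 to 2370 for Cyp4b1, and for most genes the points of both groups lie in the same range.

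With BRD4780, 4 of 43 P450 genes were higher and 0 were lower at an adjusted p under 0.05. In counts of genes below, changed means past this threshold, so 0 changed is the absence of a call and not of a difference. The share of genes called higher was 9.3% among the members, beside 2.3% of all genes tested, and 0.623% of all genes were called lower (2.92% in either direction). The 4 were Cyp27a1, Cyp2d22, Cyp26b1 and Cyp17a1, each from another branch of the family. Cyp17a1 passed the count limit only through the BRD4780 libraries, so the 9.3% includes a gene admitted by the group where it was high. At an unadjusted p under 0.05 there were 15 of 43 (34.9%), beside 24.6% of all genes. The median log2 fold change was 0.15 over the members and 0.01 over all genes tested. DESeq2 called 7 higher and 2 lower, with 6.4% and 3.65% of all genes. The groups did not overlap in 6 members that were higher (14% of the members, 7.44% of all genes) and in 2 that were lower (4.65% and 5.16%).

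Without BRD4780 replicate 3, 8 of 43 (18.6%) were higher and 7 (16.3%) lower, while 12.1% and 11.3% of all genes were so called. The 8 were the 4 named above with Cyp1b1, Cyp2j6, Cyp2j9 and Cyp4a14. The 7 lower were Cyp4a12a, Cyp4a12b, Cyp4b1, Cyp4f14, Cyp2j5, Cyp2j11 and Cyp2f2. The median log2 fold change of the 43 was then 0.21. With any other single library left out, between 1 and 3 members were higher and 0 lower.

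**Figure D2:**
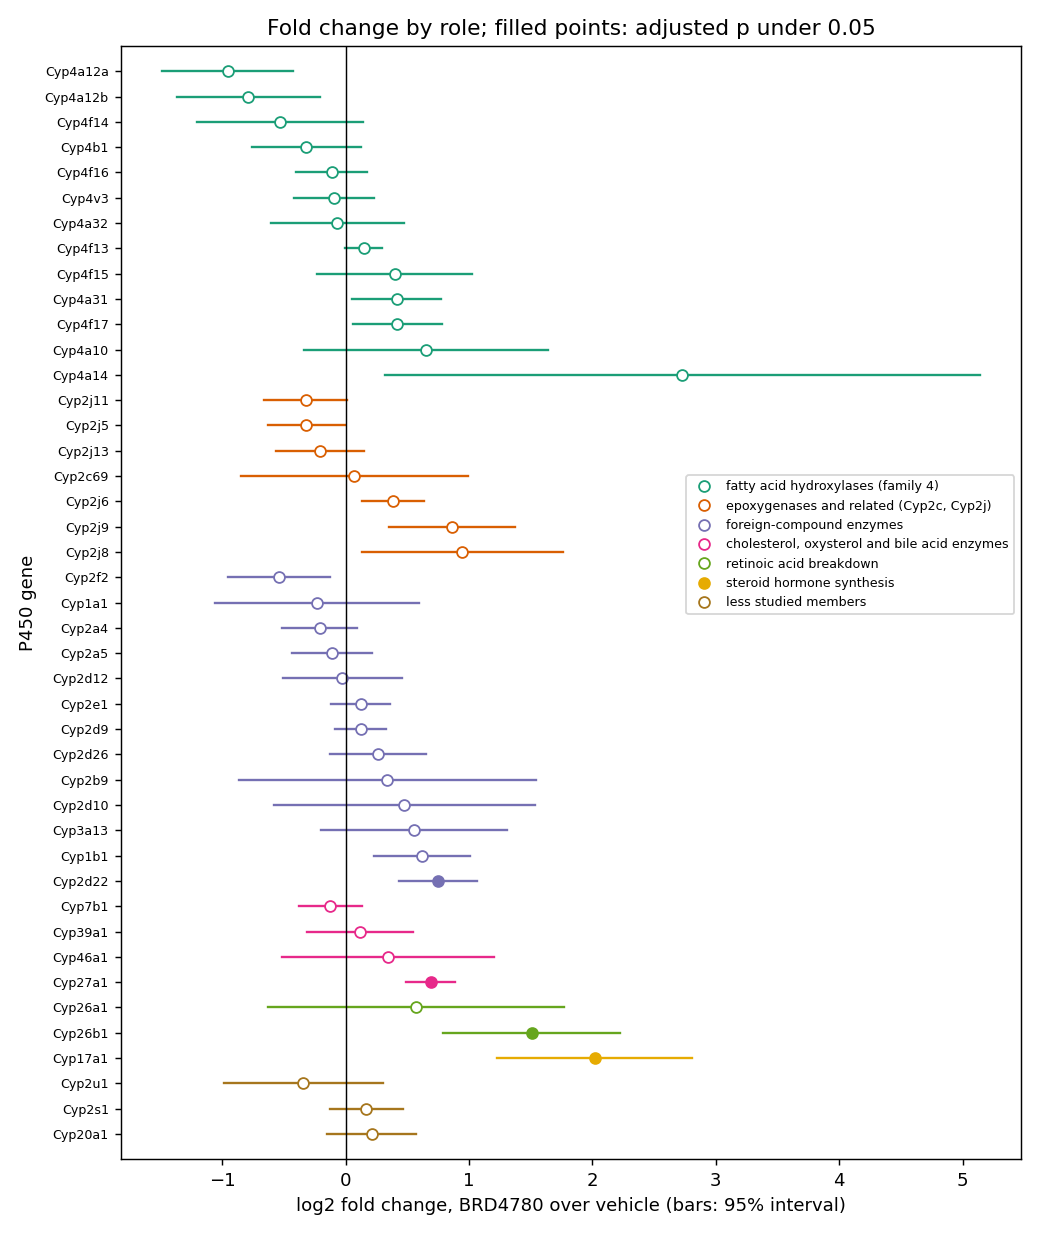
Log2 fold change of each P450 gene, BRD4780 over vehicle, with its 95% interval from edgeR, coloured by role. Filled points mark Cyp27a1, Cyp2d22, Cyp26b1 and Cyp17a1, the 4 with an adjusted p under 0.05, all to the right of 0, while family 4 runs from -0.95 for Cyp4a12a to 2.73 for Cyp4a14.

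Among enzymes of cholesterol, oxysterol and bile acid metabolism, 4 of 6 members passed the count limit and 1 of the 4 was changed. It was Cyp27a1, the mitochondrial sterol hydroxylase that starts the alternative route to bile acids (chromosome 1, 74713574 to 74737892, plus strand, GRCm38). Vehicle replicates 1 to 4 had 50.6, 50.5, 49.2 and 51.1 CPM, and the BRD4780 replicates had 79.3, 88.6, 68.7 and 89.2. Each treated library was above each vehicle library, replicate 3 being the lowest of the treated. Cyp27a1 rose 1.61-fold, from 50.4 ± 0.80 to 81.4 ± 9.6 CPM (log2 fold change 0.69 ± 0.09 SE, adjusted p = 0.0090). The call held with each library left out in turn, with adjusted p from 0.000203 to 0.0428.

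Cyp7b1, the oxysterol hydroxylase that follows Cyp27a1 in that route, had 526, 433, 387 and 432 CPM in vehicle and 392, 385, 478 and 377 with BRD4780. The groups overlapped, at a log2 fold change of -0.12 ± 0.11 SE (adjusted p = 0.525). Cyp39a1, which hydroxylates oxysterols, had 7.89 ± 1.6 and 8.62 ± 1.7 CPM. Cyp46a1, the cholesterol hydroxylase best known from neurons, had 1.09 ± 0.21 and 1.33 ± 0.78 CPM. Cyp7a1, the rate-limiting enzyme of the classic bile acid route in liver, had no count in any library. That allows up to 3 counts, or 0.105 to 0.523 per M of the unscaled library total depending on depth. Cyp8b1, the sterol hydroxylase of cholic acid synthesis, had 1 count in vehicle and 6 with BRD4780.

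Of the foreign-compound enzymes, taken as families 1 and 3 and subfamilies 2a, 2b, 2d, 2e, 2f and 2g, 13 of 32 passed the count limit. Cyp2d22 was the 1 changed gene among them. It belongs to the subfamily whose human member CYP2D6 clears many drugs, and lies on chromosome 15 (82370527 to 82380260, minus strand, GRCm38). Its values were 43.5, 39.3, 49.8 and 41.2 CPM in vehicle and 81.0, 82.2, 51.9 and 76.6 with BRD4780. All treated libraries were above all vehicle libraries, but replicate 3 lay only just above the highest vehicle value. The means of Cyp2d22 were 43.5 ± 4.6 and 72.9 ± 14.2 CPM, a 1.68-fold rise (log2 fold change 0.75 ± 0.14 SE, adjusted p = 0.0299). The call was lost when any library other than BRD4780 replicate 3 was left out, with adjusted p up to 0.108. Without that replicate it was 0.000321.

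The most abundant of these enzymes did not pass the test. Cyp2e1, which oxidises ethanol and other small molecules, had 2131, 2175, 2450 and 2318 CPM in vehicle and 2083, 2511, 2604 and 2671 with BRD4780. For Cyp2e1 the groups overlapped, and the 95% interval of the fold was 0.92 to 1.28 (adjusted p = 0.502). Cyp2a4, a testosterone hydroxylase, had 1588, 1663, 1401 and 1799 CPM in vehicle and 1356, 1419, 1702 and 1101 with BRD4780. Its near-copy Cyp2a5, the coumarin hydroxylase, had 960, 1033, 812 and 1097 against 826, 1145, 915 and 722 CPM. Both genes overlapped between groups, with adjusted p of 0.361 and 0.673. Cyp2a5 took 36.7% to 38.3% of the counts of this pair in vehicle and 35.0% to 44.7% with BRD4780.

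Cyp2d9, another testosterone hydroxylase, had 692, 756, 664 and 677 CPM in vehicle and 721, 872, 729 and 713 with BRD4780 (fold 1.09, 95% interval 0.94 to 1.26, adjusted p = 0.438). Cyp1b1, which acts on estrogens and polycyclic hydrocarbons, went from 12.4 ± 1.9 to 19.4 ± 5.1 CPM in mean, with an adjusted p of 0.079. DESeq2 put Cyp1b1 at 0.0185, and leaving out BRD4780 replicate 3 gave 0.0291. Limma-voom gave 0.0777, and a single random draw that thinned all libraries to the shallowest 0.257. Cyp1b1 was past the threshold in only 1 of 8 fits that left out a library, with adjusted p up to 0.203. Cyp2f2, known for activating naphthalene in lung, had 4.08 to 4.86 CPM in vehicle and 2.44 to 4.02 with BRD4780, without overlap (log2 fold change -0.54 ± 0.19 SE, adjusted p = 0.121). Without BRD4780 replicate 3, Cyp2f2 had an adjusted p of 0.0187. With all libraries thinned to the shallowest, in a single random draw, its log2 fold change was -0.04 (adjusted p = 0.982).

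In retinoic acid breakdown, 2 of 3 members passed the count limit and 1 was changed. Cyp26b1, which hydroxylates retinoic acid and so ends its signal, lies on chromosome 6 (84571414 to 84593908, minus strand, GRCm38). It had 3.95, 4.09, 2.07 and 2.54 CPM in vehicle and 8.19, 14.9, 5.78 and 7.03 with BRD4780. All 4 treated libraries were above all 4 vehicle libraries, and replicate 2 was the highest. Cyp26b1 rose 2.84-fold, from 3.16 ± 1.01 to 8.98 ± 4.08 CPM (log2 fold change 1.51 ± 0.32 SE, adjusted p = 0.0421). It was past the threshold in only 1 of 8 fits that left out a library, the one without BRD4780 replicate 3 (0.00386), and up to 0.106 in the others. Limma-voom gave 0.0592, and the single draw that thinned all libraries to the shallowest gave 0.347. Cyp26a1, the other retinoic acid hydroxylase, was at 0.35 ± 0.18 and 0.56 ± 0.34 CPM (adjusted p = 0.536), and had 10 or more counts in just 4 libraries.

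Of the steroid hormone enzymes, 1 of 6 passed the count limit. Cyp17a1, the hydroxylase and lyase of androgen synthesis, lies on chromosome 19 (46667165 to 46673172, minus strand, GRCm38). Its values were 0.215, 0.368, 0.426 and 0.431 CPM in vehicle and 1.45, 1.58, 0.901 and 2.18 with BRD4780. The groups did not overlap, at a low level throughout, with 33 counts in the whole vehicle group. These are too few for 10 counts in each of the 4 vehicle libraries. Cyp17a1 thus passed the count limit only through the BRD4780 libraries, where it was higher. The fold for Cyp17a1 was 4.05 with a 95% interval of 2.34 to 7.02 (log2 fold change 2.02 ± 0.36 SE, adjusted p = 0.0223). It was past the threshold in 2 of 8 fits that left out a library, those without vehicle replicate 4 and BRD4780 replicate 3. Among these fits the adjusted p ran from 0.00193 to 0.0812.

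Other genes of steroid synthesis were at or near 0. Cyp11b1 and Cyp11b2, which make corticosterone and aldosterone in the adrenal cortex, had no count in any library, and Cyp19a1, the aromatase, had none either. Cyp11a1, which cleaves the cholesterol side chain, had 5 counts in vehicle and 1 with BRD4780, and Cyp21a1 had 6 and 8. Of 7 further adrenal cortex markers, 4 were testable and 0 changed, and most of their summed level of 78.6 to 85.1 CPM in vehicle and 63.0 to 83.9 with BRD4780 was Fdx1, which is not particular to the adrenal. The other tested markers had positive fold changes. Hsd3b1, a steroid dehydrogenase, had 0.98 ± 0.39 and 2.34 ± 1.34 CPM (2.27-fold, adjusted p = 0.155). Star, the cholesterol carrier of mitochondria, was at 1.28-fold and the aldose reductase relative Akr1b7 at 1.21-fold, with adjusted p of 0.258 and 0.677. Nr5a1, the regulator that defines steroid-making cells, had no count, and the corticotropin receptor Mc2r had 4 and 2 counts.

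**Figure D3:**
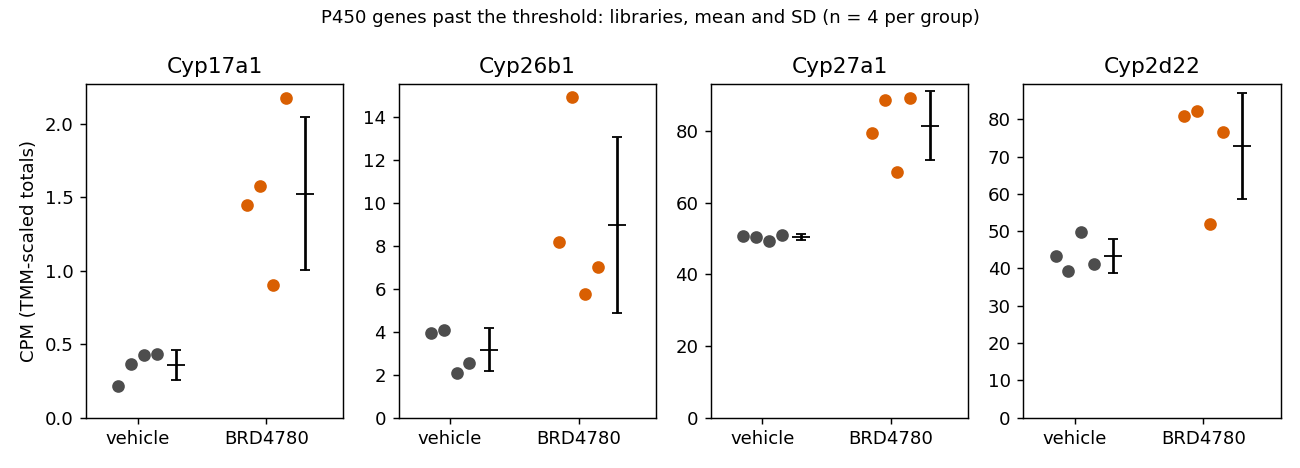
CPM of Cyp17a1, Cyp26b1, Cyp27a1 and Cyp2d22 in each library (points), with mean and SD beside them (n = 4 per group). Each treated point lies above each vehicle point, and BRD4780 replicate 3, the third treated point, is the lowest of its group in all 4 panels.

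Family 4, the fatty acid hydroxylases, had 13 of 17 members above the count limit, the largest share of a role group with more than 6 members. By the main test 0 of 13 changed, and log2 fold changes ran from -0.95 to 2.73. Under an unadjusted p of 0.05 were 5 of 13, beside 24.6% of all genes. Cyp4b1, the most abundant P450 transcript, had 4988, 5281, 4241 and 5399 CPM in vehicle and 3856, 3396, 5835 and 2874 with BRD4780. Replicates 1, 2 and 4 were below all vehicle libraries, and replicate 3 was above them. The log2 fold change of Cyp4b1 was -0.32 ± 0.20 SE (adjusted p = 0.341), and -0.56 without replicate 3 (adjusted p = 0.00729).

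Cyp4a12a, which makes vasoconstrictor hydroxy acids from arachidonic acid in male mouse kidney, had 1427, 1501, 1234 and 1327 CPM in vehicle. With BRD4780 it had 638, 541, 1164 and 489 CPM. The groups did not overlap, with replicates 1, 2 and 4 far from the vehicle range and replicate 3 just under it. The means were 1373 ± 117 and 708 ± 310 CPM (log2 fold change -0.95 ± 0.24 SE), and the adjusted p of 0.0608 missed the threshold. DESeq2 gave 0.00197, thinning to equal totals 0.0391, and leaving out BRD4780 replicate 3 gave 1.00e-04 at a log2 fold change of -1.30. Limma-voom gave 0.0516, and the fit with a block for shared title numbers 0.128. Cyp4a12a was past the threshold in only 1 of 8 fits that left out a library, with adjusted p up to 0.172. Its near-copy Cyp4a12b had 28.1 to 47.1 CPM in vehicle and 13.0 to 28.3 with BRD4780 (log2 fold change -0.79 ± 0.26 SE, adjusted p = 0.11). Summed over both, to set aside how reads were divided, the values were 1474, 1534, 1270 and 1355 CPM in vehicle and 651, 567, 1192 and 502 with BRD4780.

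**Figure D4:**
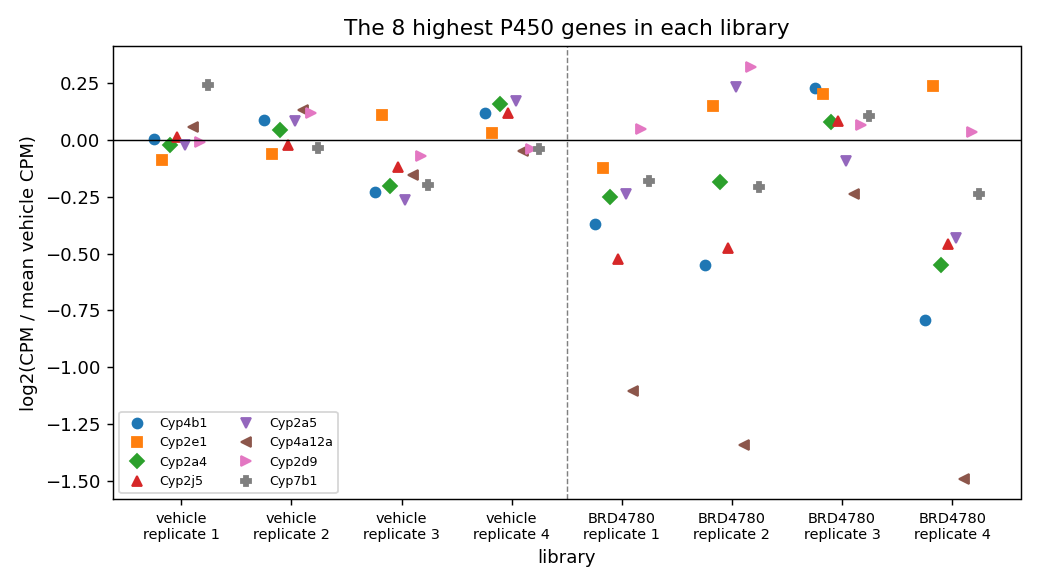
Log2 ratio of CPM to the mean vehicle CPM for the 8 P450 genes with the highest level per kilobase, in each of 8 libraries. Cyp4a12a is far below 0 in BRD4780 replicates 1, 2 and 4, Cyp4b1 and Cyp2j5 are also below the vehicle points there, and in BRD4780 replicate 3 Cyp4b1 is above 0.

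The neighbouring genes Cyp4a10, Cyp4a14, Cyp4a31 and Cyp4a32, known targets of the fatty acid receptor PPARA, form a list of 4 with 0 changed. Cyp4a31 had 223 to 319 CPM in vehicle and 298 to 477 with BRD4780 (log2 fold change 0.42 ± 0.16 SE, adjusted p = 0.157). Cyp4a14 and Cyp4a10 fall outside the rule for named genes and were chosen after their values were seen. Cyp4a14 had 26.1, 4.57, 31.5 and 6.12 CPM in vehicle and 24.3, 350, 4.92 and 64.9 with BRD4780. It varied widely within both groups, with replicate 2 far above all others (log2 fold change 2.73 ± 1.09 SE, adjusted p = 0.163). Leaving out BRD4780 replicate 3 gave 0.0257.

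Cyp4a10 had 463, 215, 236 and 287 CPM in vehicle and 242, 1042, 270 and 330 with BRD4780. Replicate 2 was again the highest, and the other treated libraries lay within the vehicle range (adjusted p = 0.384). Ppara itself had 126 ± 23 and 151 ± 5.6 CPM (adjusted p = 0.202). Cyp4a32 was much lower, at 1.48 ± 0.27 and 1.38 ± 0.27 CPM.

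**Figure D5:**
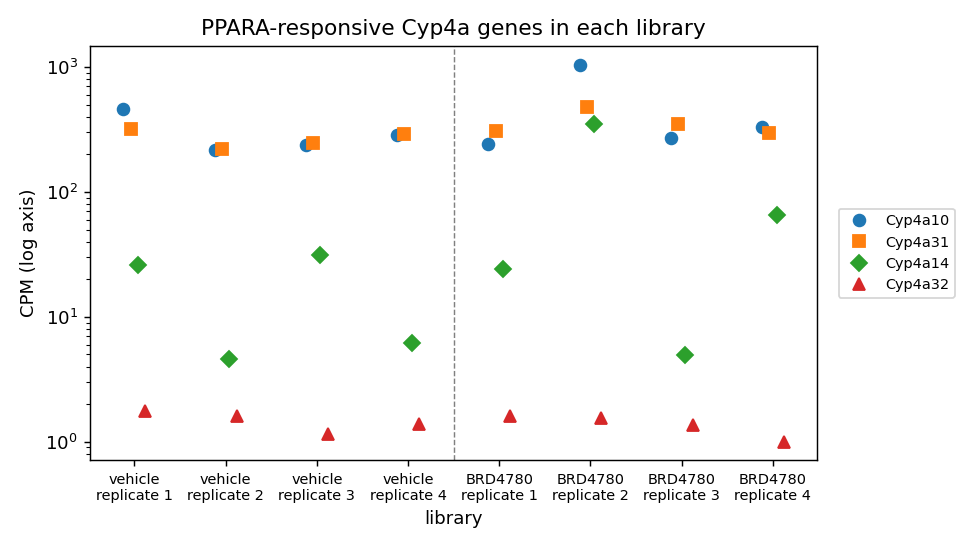
CPM (log axis) of the 4 PPARA-responsive Cyp4a genes in each library. Cyp4a14 ranges from 4.57 to 350 CPM, and Cyp4a14 and Cyp4a10 are both highest in BRD4780 replicate 2.

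The Cyp4f hydroxylases, which act on leukotrienes and long-chain fatty acids, were mostly low. Cyp4f17 had 3.73 to 5.86 CPM in vehicle and 6.19 to 6.87 with BRD4780, without overlap (log2 fold change 0.42 ± 0.16 SE, adjusted p = 0.154). Thinned to the shallowest library in a single random draw, Cyp4f17 had a log2 fold change of 0.12 (adjusted p = 0.925). Cyp4f13 had 35.4 to 38.4 CPM in vehicle and 39.3 to 41.4 with BRD4780, again without overlap. Its log2 fold change was 0.15 ± 0.07 SE (adjusted p = 0.207). Cyp4f13, Cyp4f14, Cyp2j11 and Cyp2j13 are outside the rule for named genes. Cyp4f14 had 4.69 ± 0.60 and 3.12 ± 1.69 CPM, with 5.60 in BRD4780 replicate 3 and 1.84 to 2.77 in the other treated libraries. Its adjusted p was 0.299, and 0.00818 without replicate 3.

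Of the Cyp2c and Cyp2j enzymes, 7 of 21 passed the count limit, 6 of them of the Cyp2j subfamily, and 6 of the 21 had no count. By the main test 0 of 7 changed, and 4 of 7 were under an unadjusted p of 0.05, beside 24.6% of all genes. Cyp2j5, the main epoxygenase of mouse kidney, had 1834, 1793, 1678 and 1978 CPM in vehicle and 1266, 1311, 1931 and 1326 with BRD4780. Replicates 1, 2 and 4 were below all vehicle libraries and replicate 3 was within their range. The log2 fold change of Cyp2j5 was -0.32 ± 0.14 SE (adjusted p = 0.194), and -0.49 without replicate 3 (adjusted p = 0.00189).

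Cyp2j11 had a log2 fold change of -0.32 ± 0.15 SE (adjusted p = 0.219), and an adjusted p of 0.00486 without BRD4780 replicate 3. Cyp2j13 had 720 ± 81 and 623 ± 145 CPM (adjusted p = 0.445). The less abundant Cyp2j9, Cyp2j6 and Cyp2j8 had positive fold changes. Cyp2j9 had 11.3, 12.9, 15.5 and 20.9 CPM in vehicle and 36.3, 23.5, 19.2 and 31.96 with BRD4780, where replicate 3 lay within the vehicle range. Its log2 fold change was 0.86 ± 0.23 SE (adjusted p = 0.071), with 0.00757 without BRD4780 replicate 3 and 0.00753 by DESeq2. Limma-voom gave 0.0834. Cyp2j9 was past the threshold in 2 of 8 fits that left out a library, with adjusted p up to 0.192.

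Cyp2j6, which is found in many tissues, had 39.8 to 53.6 CPM in vehicle and 51.2 to 66.1 with BRD4780 (log2 fold change 0.38 ± 0.11 SE, adjusted p = 0.084). Leaving out BRD4780 replicate 3 gave 0.0078 for Cyp2j6, and DESeq2 gave 0.0371. Limma-voom gave 0.098, and thinning in a single random draw 0.153. Cyp2j6 was past the threshold in only 1 of 8 fits that left out a library, with adjusted p up to 0.209. Cyp2j8 was near the count limit, with 0.46 ± 0.23 and 0.83 ± 0.15 CPM (adjusted p = 0.155). The 3 less studied members above the count limit, Cyp2s1, Cyp2u1 and Cyp20a1, had log2 fold changes from -0.34 to 0.21, with 0 at an unadjusted p under 0.05.

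The count limit itself set which low genes were described. Just inside it were Cyp26a1 and Cyp2b9, with 10 or more counts in 4 libraries, and Cyp2j8 in 5. Just outside were Cyp2b10, Cyp2c38 and Cyp2d34 in 3 libraries and Cyp2j12 and Cyp4f39 in 2. Cyp2b10, the usual target of the receptor CAR, had 27 counts in vehicle and 86 with BRD4780. Its values were 0.036, 0.331, 0 and 0.733 CPM in vehicle and 0.538, 2.18, 0.263 and 0.167 with BRD4780. The groups overlapped, and BRD4780 replicate 2 was far above the other treated libraries.

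Members were also grouped by what is known to control them. Of 7 genes known to be higher in male than in female mouse kidney, namely Cyp2e1, Cyp4a12a, Cyp4a12b, Cyp4b1, Cyp7b1, Cyp2j13 and Cyp2j5, 0 changed and 6 had negative log2 fold changes, with a median of -0.32. Over all genes tested, 6522 of 13474 were negative. Without BRD4780 replicate 3, 4 of the 7 were lower, beside 11.3% of all genes, and the median was -0.49. The pattern was not particular to this list. Of 19 proximal tubule markers, 15 had negative log2 fold changes, and 12 were lower without that replicate. The 7 include the near-copies Cyp4a12a and Cyp4a12b, and the list was chosen with earlier results known. Of targets of the dioxin receptor AHR, 2 of 3 were testable and 0 changed. Cyp1a1, its most inducible target, had 2.36 ± 0.46 and 1.89 ± 1.20 CPM (adjusted p = 0.738). Of 6 targets of the drug-sensing receptors PXR and CAR, 2 were testable and 0 changed.

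The receptors and other regulators of P450 genes numbered 28 tested, of which 0 changed and 10 were under an unadjusted p of 0.05. Of all genes tested, 24.6% were under that unadjusted p. Hnf4a, a main activator of tubule genes, had 836 ± 52 and 791 ± 75 CPM (adjusted p = 0.632). The glucocorticoid receptor Nr3c1 had 74.8 ± 2.8 and 53.0 ± 12.9 CPM, with 71.8 in BRD4780 replicate 3 and 43.3 to 51.0 in the other treated libraries (adjusted p = 0.0825). Ahr had 6.71 ± 1.12 and 8.37 ± 1.53 CPM, and the PXR gene Nr1i2 had 6.77 ± 0.56 and 7.72 ± 1.00 CPM, with adjusted p of 0.291 and 0.458. Nr1i3, which encodes CAR, was too low to test, with 9 counts in vehicle and 37 with BRD4780.

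Among 11 electron donors and heme genes, 1 was higher. It was Hmox1, the stress-induced enzyme that breaks down heme, with 38.2 ± 9.2 and 97.8 ± 31.9 CPM (2.57-fold, adjusted p = 0.0175). The reductase Por had 385 ± 33 and 354 ± 55 CPM (adjusted p = 0.55), and the ferredoxin Fdx1 had 75.7 ± 3.9 and 60.7 ± 11.2 CPM (adjusted p = 0.146). Of 8 tested epoxide hydrolases and eicosanoid enzymes outside the Cyp names 0 changed, of 4 further AHR-responsive genes 0 changed, and of the 4 P450 genes left out by name 0 changed.

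Upstream sequence was examined for 31 of the 43 members, in 35 RefSeq windows of 250 bases before a transcript start (GRCm38.p6). Windows are shown for Cyp27a1, the member whose call held in every fit, and Cyp4b1, the most abundant, on the strand of the gene. Capitals in Cyp4b1 mark a match to TTCNNNGAA, the palindrome bound by STAT5, the growth hormone effector that sets sex differences in liver. The Cyp27a1 window is chr1:74713285-74713534 on the plus strand, and that of Cyp4b1 is chr4:115647722-115647971 on the minus strand.
Cyp27a1: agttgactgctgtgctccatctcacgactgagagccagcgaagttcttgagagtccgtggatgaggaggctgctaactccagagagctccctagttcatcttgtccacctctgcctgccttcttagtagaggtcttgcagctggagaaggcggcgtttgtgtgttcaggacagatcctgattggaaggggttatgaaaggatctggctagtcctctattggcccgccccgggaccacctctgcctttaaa
Cyp4b1: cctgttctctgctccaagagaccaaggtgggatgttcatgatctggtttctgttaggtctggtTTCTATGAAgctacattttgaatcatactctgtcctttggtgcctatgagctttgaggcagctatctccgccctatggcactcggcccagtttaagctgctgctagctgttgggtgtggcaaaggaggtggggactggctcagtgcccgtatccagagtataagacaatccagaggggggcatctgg

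On both strands, TTCNNNGAA was in 3 of 35 member windows (8.57%), those of Cyp4b1, Cyp2j11 and Cyp4f13, and in 7.02% of all 32851 windows. The AHR core GCGTG was in 10 of 35 (28.6%) and in 28.2% of all windows. The TTANGTAA box of circadian bZIP factors was in 0 of 35 and in 2.06% of all. The longer motifs of the glucocorticoid receptor, of HNF4 and PPAR (a direct repeat) and of HNF1 were in 0 of 35, and in 0.0365%, 0.0335% and 0.00913% of all windows. A match is a description of letters and not a binding site.

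Kidney cell type markers moved between the groups as well. The 19 markers of the proximal tubule, where most of these P450 genes are known to be expressed, summed to 36030 to 36857 CPM in vehicle. In the BRD4780 libraries they summed to 29405, 28035, 42667 and 27865 CPM, replicate 3 again being above all vehicle libraries. By test 1 of the 19, Pck1, was higher and 0 were lower, and without BRD4780 replicate 3 12 were lower. The summed P450 level was 41.7% to 46.7% of this marker sum in vehicle and 45.8%, 53.0%, 41.6% and 44.7% with BRD4780.

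Podocyte markers summed to 54.4 to 134 CPM in vehicle and 193 to 294 with BRD4780, with 3 of 6 higher, and endothelial markers to 104 to 204 and 220 to 275 CPM, with 2 of 7 higher. Of 6 thick ascending limb markers 1 was lower, and of 4 distal convoluted tubule markers 1 was higher. Among 6 collecting duct, 5 liver, 5 adipocyte, 5 macrophage and 2 erythrocyte markers 0 were past the threshold. The median log2 fold change was -1.82 for the adipocyte markers, which summed to 81.1 to 239 CPM in vehicle and 52.2 to 160 with BRD4780. It was -1.61 for the erythrocyte markers Hba-a1 and Alas2, both of which were lower without BRD4780 replicate 3. The liver markers summed to 263 to 461 CPM in vehicle and 283 to 557 with BRD4780. Most of the liver sum was Ttr, at 288 ± 106 and 324 ± 111 CPM, while Alb had 8.0 ± 1.3 and 7.0 ± 2.9. Most of the adipocyte sum was Fabp4, at 104 ± 45 and 78.5 ± 36 CPM. The part of these shifts in the values of the 4 raised P450 genes, and in those of Cyp4a12a, Cyp4b1 and Cyp2j5, was not tested.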

How the data were processed

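The authors deposited one expected count per gene and library, which is what RSEM 1.3.0, listed in the submitters' processing notes, estimates, and the values are not normalized. Those notes also list STAR 2.5.2b, Picard and the builds mm10 and hg19, without their roles. Annotation, read filters and strand setting were not given in the sources used here. Thus the counts of Cyp2a4, Cyp2f2, Cyp2s1 and Cyp2u1 could hold reads of overlapping genes on the opposite strand. Cyp2d9, Cyp2d10, Cyp2d12 and Cyp4v3 share exon bases with other genes on the same strand, whatever the setting. The longest such overlaps were 313 bases of Cyp4v3 with Gm45753 and 186 bases of Cyp2d9 with the pseudogene Gm46501. Symbols on several identical lines (343) were collapsed, and 1 column of per-sample values that matched no sample analysed was not used. No gene model length entered the test. Per the series design, each arm had 4 mice, taken here as 1 library each.

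Counts were rounded to whole numbers, filtered with filterByExpr (minimum count 10), scaled by TMM and tested with edgeR 4.0.16 in R 4.3.3 by the quasi-likelihood F-test, 4 against 4 with no covariate. Adjustment was by Benjamini-Hochberg over 13474 genes, with a threshold of 0.05. SE is the absolute log2 fold change over the square root of F. The script was tested on simulated counts. Sums per library were compared by exact permutation. Coordinates and transcripts are from GENCODE M21 (GRCm38), in which 21790 of 22116 identifiers were found, and promoter windows from RefSeq.

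Members, roles and lists were chosen with earlier results of these data known. Named genes are the members past the threshold, the 8 highest per kilobase, and further members by p until 20 were named. Alternatives were other scalings (RLE, upper quartile), DESeq2 1.42.0, limma-voom 3.58.1, other count filters, thinning to the smallest total, leaving out each library, and a block for numbers shared between sample titles. Thinning was a single random draw, so its values for genes with few counts also carry the chance of that draw. Fold intervals are from the edgeR fit and include the spread between libraries, while floors of 3 counts cover counting error only.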

Additional observations from a re-analysis of the deposited data

Results flagged for a closer look

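For the 20 named P450 genes, both groups of 4 libraries were searched for a single library set apart beyond Dixon's 95% critical value for 4 libraries, taken on its gap to the nearest library over the range of the group. Of 40 groups 4 were so marked, and chance marks about 1 in 20. Cyp2j5, the kidney epoxygenase, was highest in BRD4780 replicate 3 at 1931 CPM, where the next treated library had 1326 (ratio 0.910). Cyp7b1, the oxysterol hydroxylase, was highest in the same library at 478 CPM, with 392 next (0.849). Cyp2j6 was lowest there at 51.2 CPM, with 64.4 next (0.885). In these 3 genes the value of that library was within the vehicle range. Cyp2d9, a testosterone hydroxylase, was highest in BRD4780 replicate 2 at 872 CPM, with 729 next (0.903).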

How the results depend on the processing

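The 4 members called higher and 0 called lower were the same genes under RLE and upper-quartile scaling and under both other count filters. Limma-voom called 3 higher. Thinning to equal totals left 34 of the 43 members tested, without Cyp17a1, and gave 2 higher and 1 lower (Cyp4a12a). DESeq2 gave 7 and 2; the cause was not tested. Leaving out 1 library at a time gave 1 to 8 higher, 0 to 7 lower and a median log2 fold change of 0.037 to 0.22. The extremes of 8, 7 and 0.22 came without BRD4780 replicate 3 and 0.037 without BRD4780 replicate 1. These 2 medians are over the 44 members tested in each of those fits, while the 0.21 given earlier is over the 43. The difference in the share of the 5 highest genes was -5.11 to -2.22 percentage points. The summed-level leave-outs, chosen after seeing the data, gave -2786 to -1019 CPM. Over all genes the count called higher was 310, and 863 with DESeq2, 147 with thinning, 204 with limma-voom and 26 to 1647 with a library left out; the lower counts were 84, 492, 48, 70 and 5 to 1537. Among the 20 named genes 0 changed direction: with a library left out 131 values kept their side of the threshold, 20 lost the call and 9 gained it, and in the other settings 147, 5 and 6. Replicate numbers follow the order of deposition. In the sample titles 2 numbers each stand on 1 vehicle and 1 BRD4780 sample, with no stated meaning, and 4 numbers stand on 1 sample each. A fit with a block for the shared title numbers, added after seeing the data, called 1 member higher (Cyp27a1) and 0 lower, and 40 and 10 over all genes. BRD4780 replicate 4, with 5.74 M counts, limits what can be said of the lowest genes.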
